A study of Saccharomyces cerevisiae with 4 samples.

Results

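RNase H enzymes remove R-loops and the THO complex keeps them from forming. An R-loop is a DNA-RNA hybrid, formed when a nascent transcript pairs again with its template, together with the DNA strand that it displaces. RNase H1 and RNase H2 degrade the RNA of such hybrids, and RNase H2 also removes single ribonucleotides that DNA polymerases leave in DNA. THO packages the transcript as it emerges from RNA polymerase II and forms the TREX complex with the mRNA export factors Sub2 and Yra1, and yeast mutants of THO are known for R-loops and for recombination that depends on transcription. The genes analysed here encode RNase H1 (*RNH1*), the 3 subunits of RNase H2 (*RNH201*, *RNH202* and *RNH203*), the 4 core subunits of THO (*THO2*, *HPR1*, *MFT1* and *THP2*) and the TREX factors *SUB2* and *YRA1*. They were chosen by gene symbol, 10 of the 5449 *Saccharomyces cerevisiae* genes with a probe set on the array. Each was read by 1 probe set, and none of these carried a name that marks it as shared between genes.

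Affymetrix Yeast Genome 2.0 arrays were hybridised with total RNA of W303-1A cultures in exponential growth, 1 culture per array. The RECQL5 group is 3 arrays of cells with pCM189::RECQL5-FLAG, which express FLAG-tagged human RECQL5, a DNA helicase of the RecQ family known to associate with RNA polymerase II, from a tet promoter that is active without doxycycline. For WT there is a single array, of cells that carry pCM189 without an insert. Both groups share the MATa background of W303-1A with its alleles *ura3-1*, *his3-11,15*, *trp1-1*, *can1-100* and *ade2-1* and its mutant *LEU2* allele, both carry a centromeric plasmid with *URA3* as its marker, and both grew in minimal medium with 2% glucose and no uracil. The comparison asks how transcript levels differ in cells that express the human helicase. Other experiments of the study overexpressed RNase H1 from a plasmid, and no such plasmid is named for these 4 arrays.

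Values are log2 levels after RMA, and a change is RECQL5 minus WT on that scale. The arrays of the RECQL5 group lay close together (SD of the differences between 2 arrays 0.11 to 0.18 over 4128 tested genes) and further from WT (0.46 to 0.50). With no WT replicate, each test sets the distance of 1 culture from 3 others against the spread among those 3, and a trait of the single WT culture cannot be told apart from an effect of RECQL5. The study also states that its WT array was standardized with published arrays, and it is not known whether the WT values used here already include that step. As a check of the MATa label, all 5 markers of a cells passed the level filter, and 3 of 4 markers of α cells lay under it. The α-agglutinin gene *SAG1* passed it, at 9.42, 9.26 and 9.35 in RECQL5 and 9.07 in WT. The α-factor gene *MF(ALPHA)1* read 6.49, 6.85 and 5.81 in RECQL5 and 7.96 in WT (called down with no level filter), and *STE3*, the a-factor receptor gene that α cells express, read 6.71, 6.82 and 6.60 in RECQL5 and 7.11 in WT. The a-factor gene *MFA1* fell, at 13.16, 12.83 and 12.75 in RECQL5 and 13.55 in WT (-0.63 ± 0.16, limma adjusted p = 0.0221). The a markers did not move together. Of these 5 genes 3 had a positive change and 2 lay below WT on all 3 RECQL5 arrays, with a median change of 0.15. The largest rise among them was that of *STE6* (0.55 ± 0.08, limma adjusted p = 0.0040, under 1.5-fold). Mating type genes thus differed between the groups, and their part in the results was not tested. All 10 genes read above 100% of 1746 probe sets that are named for genes of no *S. cerevisiae* entry in the gene table. The medians of those probe sets were 3.21 to 3.22 in RECQL5 and 3.22 in WT. The lowest of the 10, *THP2*, read 7.96 to 8.14 on the RECQL5 arrays and 7.70 on the WT array. That floor does not show that a gene is expressed. The study took its filter level of 600 from the median of meiotic genes without expression. *RNH201*, *HPR1* and *THP2* lay under that level, and in WT *THP2* read lower than *MF(ALPHA)1*.

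The genes of the 2 RNase H enzymes differed from WT in opposite directions. All 3 subunit genes of RNase H2 were higher in every RECQL5 array than in WT, *RNH203* by 1.78-fold. *RNH1* was lower in every RECQL5 array, its WT level 1.40-fold that of RECQL5. Such separation was common, since all 3 RECQL5 arrays lay above WT for 45.5% of all 5449 genes and below it for 39.7%. Of the 4 core THO genes *HPR1*, *MFT1* and *THP2* were higher on every RECQL5 array, with changes of at most 1.27-fold, and *THO2* overlapped WT. *SUB2* and *YRA1* lay within 1.06-fold of WT. A gene was called where its change was at least 1.5-fold with an adjusted p of at most 0.1 (limma, Benjamini-Hochberg over all tested genes), among the 4128 genes whose mean level over the 4 arrays reached log2(600), 9.23. Of the 10 genes 7 were tested, and 1 of these, *RNH203*, rose and 0 fell, where 9.59% of all tested genes rose and 7.80% fell. *RNH201*, *HPR1* and *THP2* lay under the level filter, and their statistics come from a fit of all 5449 genes, in which none of them was called and in which 10.3% of genes rose and 8.59% fell.

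**Figure D1:**
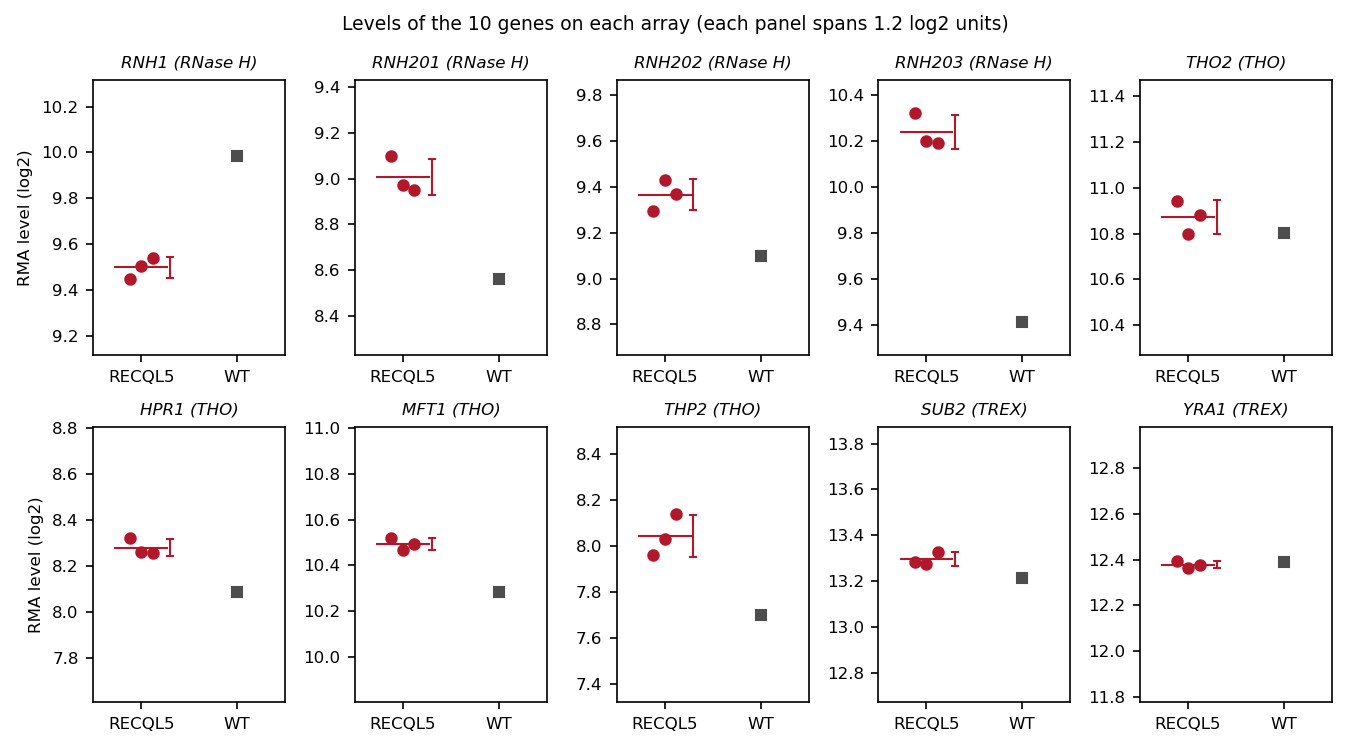
RMA log2 level (y axis) of each of the 10 genes on the 3 RECQL5 arrays (circles, with a line at their mean and a bar for ± 1 SD) and on the WT array (square), 1 panel per gene and 1.2 log2 units high in each panel. RNH203 and RNH1 show the widest gaps, 0.83 upward and 0.49 downward, and the YRA1 points of both groups coincide within 0.03.

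RNase H1 is a single protein that cuts the RNA of hybrids and leaves single ribonucleotides in DNA untouched. *RNH1* (YMR234W) read 9.45, 9.51 and 9.54 in RECQL5 and 9.98 in WT. The 3 RECQL5 values span 0.09 and all lie below WT. The change was -0.49 ± 0.07 (SE, 95% interval -0.66 to -0.32, limma adjusted p = 0.0033), past the p threshold and short of 1.5-fold, so *RNH1* was not called. Among tested genes 24.4% changed by at least as much in either direction.

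RNase H2 is the enzyme that makes the first cut at single ribonucleotides in DNA, and it works as a complex of a catalytic subunit, Rnh201, with Rnh202 and Rnh203. *RNH203* (YLR154C), the smallest of these genes at a coding length of 333 bases, read 10.32, 10.20 and 10.19 in RECQL5 and 9.41 in WT. Each RECQL5 array was at least 0.78 above WT, and the RECQL5 values differed by at most 0.13 among themselves. The change was 0.83 ± 0.08 (SE, 95% interval 0.63 to 1.03, limma adjusted p = 0.0012), and 127 of the 4128 tested genes had a larger rise. It was the one gene of the 10 whose whole interval lay past 1.5-fold, which is 0.58 on the log2 scale.

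The catalytic subunit gene *RNH201* (YNL072W) read 9.10, 8.97 and 8.95 in RECQL5 and 8.56 in WT. All RECQL5 values were higher than WT, by 0.39 to 0.54. The change was 0.45 ± 0.09 (95% interval 0.22 to 0.67, limma adjusted p = 0.0138 with no level filter), an interval that reaches past 1.5-fold while the estimate does not. *RNH202* (YDR279W), the gene of a subunit known in human cells for the contact of the enzyme with the sliding clamp, read 9.30, 9.43 and 9.37 in RECQL5 and 9.10 in WT. Its change of 0.26 ± 0.08 (95% interval 0.07 to 0.46, limma adjusted p = 0.0318) was the smallest of the subunit genes, and the lowest RECQL5 array was 0.20 above WT. Within RNase H2 the change of *RNH203* exceeded that of *RNH201* by 0.38, 0.38 and 0.39 on RECQL5 1, 2 and 3, and that of *RNH202* by 0.72, 0.46 and 0.52. The change of *RNH203* exceeded that of *RNH1* by 1.45, 1.27 and 1.23. These gaps between genes were not tested, and all of them share the single WT array. The 95% intervals of all 3 RNase H2 genes lie above 0 and that of *RNH1* below it. Changes clear of 0 were common, since in the fit with no level filter 33.0% of all genes were higher and 26.7% lower at an adjusted p of at most 0.1.

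**Figure D2:**
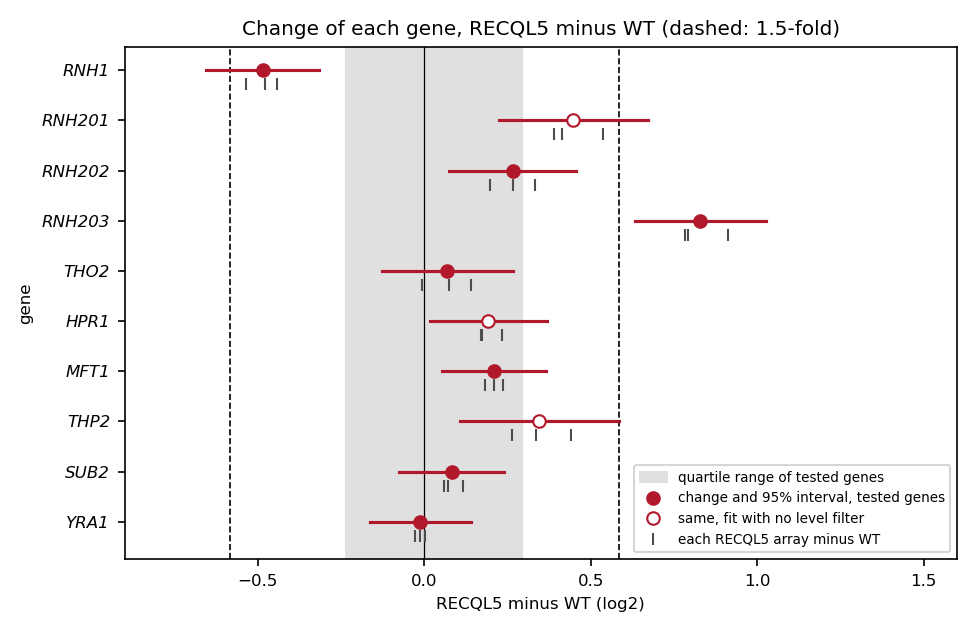
Change of each gene, RECQL5 minus WT in log2 units (x axis), with its 95% interval (filled circles: tested genes, open circles: genes under the level filter, from the fit with no filter), and below it each RECQL5 array minus WT (ticks). The grey band runs between the quartiles of the changes of tested genes (-0.23 to 0.29), the dashed lines mark 1.5-fold, and RNH203 alone lies past them.

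The core of THO is built of Tho2, Hpr1, Mft1 and Thp2, and yeast mutants of the complex are known to transcribe long and GC-rich genes poorly. *THO2* (YNL139C), which encodes the largest subunit, read 10.94, 10.80 and 10.88 in RECQL5 and 10.80 in WT. The groups overlapped, with 1 RECQL5 array 0.01 below WT. The change was 0.07 ± 0.08 (95% interval -0.13 to 0.27, limma adjusted p = 0.49). *THO2* is also the longest of the 10 genes (4794 bases), and after the trend of each array with coding length was subtracted its change was -0.12 (limma adjusted p = 0.23).

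*HPR1* (YDR138W), whose mutants are known for a very high rate of recombination between repeats, read 8.32, 8.26 and 8.26 in RECQL5 and 8.09 in WT. All 3 values were above WT by 0.17 to 0.23, a change of 0.19 ± 0.07 (95% interval 0.02 to 0.37, limma adjusted p = 0.0704 with no level filter). Over 8 alternatives its adjusted p lay between 0.0704 and 0.44, and its change dropped to 0.07 once the coding length trend was subtracted. *MFT1* (YML062C) read 10.52, 10.47 and 10.49 in RECQL5 and 10.28 in WT. The RECQL5 arrays agreed within 0.05, and the change was 0.21 ± 0.06 (95% interval 0.05 to 0.37, limma adjusted p = 0.0357). *THP2* (YHR167W), the lowest reading of the 10, gave 7.96, 8.03 and 8.14 in RECQL5 and 7.70 in WT. Its RECQL5 arrays spread the most (SD 0.09), all were higher than WT, and the change of 0.35 ± 0.09 (95% interval 0.11 to 0.58, limma adjusted p = 0.0329 with no level filter) was the largest within THO.

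Sub2 is the DEAD-box ATPase of TREX, which THO stimulates, and Yra1 is an adaptor that hands the transcript to the export receptor Mex67. *SUB2* (YDL084W) read 13.29, 13.27 and 13.33 in RECQL5 and 13.21 in WT. All RECQL5 values were higher by 0.06 to 0.12, and the change of 0.08 ± 0.06 (95% interval -0.08 to 0.24, limma adjusted p = 0.31) was not past the threshold. *YRA1* (YDR381W), known for an intron through which its own protein limits its expression, read 12.39, 12.36 and 12.38 in RECQL5 and 12.39 in WT. One RECQL5 array was above WT and the others below, and the change was -0.01 ± 0.06 (95% interval -0.16 to 0.14, limma adjusted p = 0.88). Among tested genes 97.7% changed by at least as much. Which part of *YRA1* the probes read is not known here, so spliced and unspliced RNA were not separated.

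Taken over the 10 genes in the fit with no filter, 6 were higher and 1 (*RNH1*) was lower at an adjusted p of at most 0.1 whatever the fold, where 33.0% of all 5449 genes were higher and 26.7% lower by that rule. All 3 RECQL5 arrays lay above WT for 7 genes and below it for 1, against 45.5% and 39.7% of all genes, and for *THO2* and *YRA1* the groups overlapped. The median change of the 10 was 0.20, beside 0.03 over all genes. The RNase H genes had a median of 0.36, the THO genes of 0.20, and *SUB2* and *YRA1* averaged 0.04. The spread among RECQL5 arrays was ordinary, with SDs of 0.015 to 0.090 and a median of 0.061 over tested genes. Of the 10 genes, 5 had an SD under that median.

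**Figure D3:**
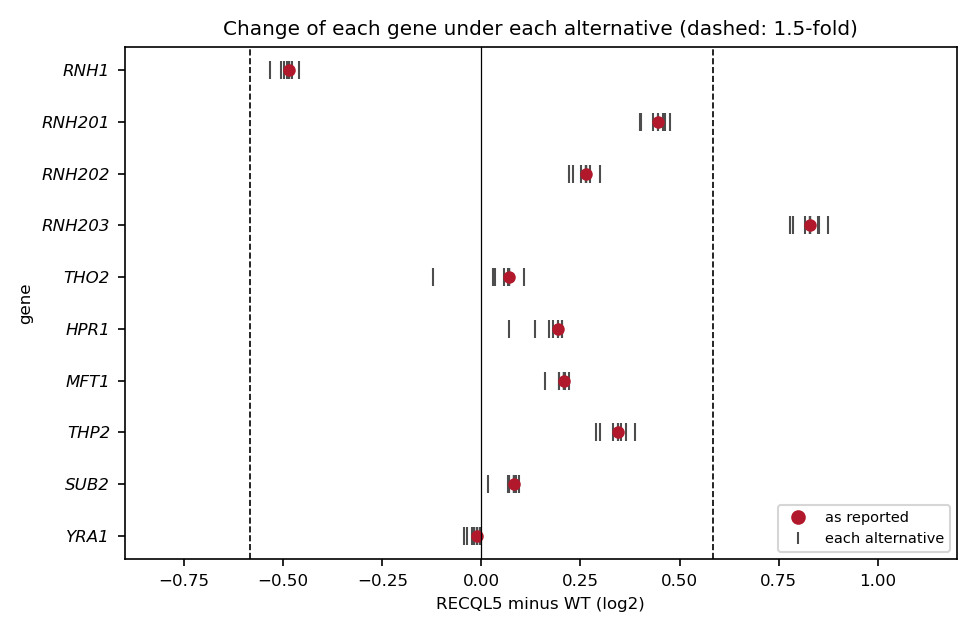
Change of each gene, RECQL5 minus WT in log2 units (x axis), as reported (circle) and under each alternative in normalization, level filter, probe set, threshold, coding length or RECQL5 replicate (ticks), with dashed lines at 1.5-fold. RNH203 stays past 1.5-fold (0.78 to 0.87), RNH1 stays between -0.53 and -0.46, and THO2 alone changes sign (-0.12 with the coding length trend subtracted).

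Partner genes of 3 lists were set beside these. In a list of 15 further TREX and mRNA export genes, 14 were tested, 0 rose and 0 fell, and the median change was 0.00, beside 0.02 over all tested genes. *TEX1*, the gene of a further protein of the THO complex, lay under the level filter and was lower on every RECQL5 array, at 8.53, 8.69 and 8.78 in RECQL5 and 9.06 in WT (-0.39 ± 0.11, limma adjusted p = 0.0422 with no level filter, under 1.5-fold). The largest change among its tested genes was that of *SEM1* (-0.39 ± 0.10, limma adjusted p = 0.0264), the gene of a small protein shared by the proteasome and the export complex TREX-2. *SEM1* read 11.74, 11.72 and 11.94 in RECQL5 and 12.19 in WT. At any fold, 5 genes of that list were higher and 3 lower at an adjusted p of at most 0.1, where 34.6% of tested genes were higher and 29.2% lower.

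Among other genes linked to the removal of R-loops, 13 of 14 had a positive change, as did 52.6% of all 5449 genes. Of the 14 such genes 13 were tested, 6 rose and 0 fell, with a median change of 0.58, where 9.59% of all tested genes rose and 7.80% fell with a median of 0.02. The largest rises were those of *NRD1* (0.83 ± 0.11), which encodes an RNA-binding termination factor, *SEN1* (0.82 ± 0.08), the gene of the helicase that unwinds DNA-RNA hybrids and works with Nrd1, *PAP2* (0.68 ± 0.07), a poly(A) polymerase gene of nuclear RNA surveillance, and *TOP2* (0.64 ± 0.06), the topoisomerase II gene (limma adjusted p = 0.0027, 0.0012, 0.0015 and 0.0012). *SEN1* read 10.83, 10.69 and 10.74 in RECQL5 and 9.93 in WT, a gap between the groups close to that of *RNH203*. The tested genes of this list are long, with a median coding length of 2580 bases against 1245 over all tested genes. Once the coding length trend was subtracted 3 of them rose (*NRD1*, *PAP2* and *SEN1*) and the median was 0.43, while *RNH203* changed by 0.87 in the same fit. The count of this list thus rests in part on that choice. It was also 4 with cyclic loess, 5 with median centring or with the level filter on every array, and 7 with RECQL5 2 left out.

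RNase H2 works beside the enzymes that join Okazaki fragments and fill the gaps left by ribonucleotide removal. In a list of 17 such partners 16 were tested, 2 rose and 0 fell, a count near the 9.59% of all tested genes that rose, and the median change was 0.32. *DNA2*, a nuclease and helicase gene under the level filter, read 9.31, 9.15 and 9.38 in RECQL5 and 8.60 in WT and was called in the fit with no filter (0.69 ± 0.11, limma adjusted p = 0.0081). *EXO1* (0.87 ± 0.11, limma adjusted p = 0.0023), the gene of a nuclease that resects DNA ends, read 10.29, 10.03 and 10.14 in RECQL5 and 9.28 in WT. *RAD27* (0.79 ± 0.09, limma adjusted p = 0.0018), the flap nuclease gene, read 10.40, 10.23 and 10.26 in RECQL5 and 9.51 in WT, and both genes rose after the coding length trend was subtracted too. A further 12 of the tested genes were higher at an adjusted p of at most 0.1 with changes under 1.5-fold. Among them were the clamp gene *POL30* (0.39 ± 0.06) and the DNA polymerase δ subunit gene *POL31* (0.49 ± 0.08), both named after their values were seen. Together 14 of 16 were higher at any fold, where 34.6% of all tested genes were higher by that rule. That count rests in part on coding length. Once the coding length trend was subtracted the median of the list was 0.25. *CDC9* and *POL3*, also named after their values were seen, then changed by 0.08 and 0.05, neither past the p threshold.

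**Figure D4:**
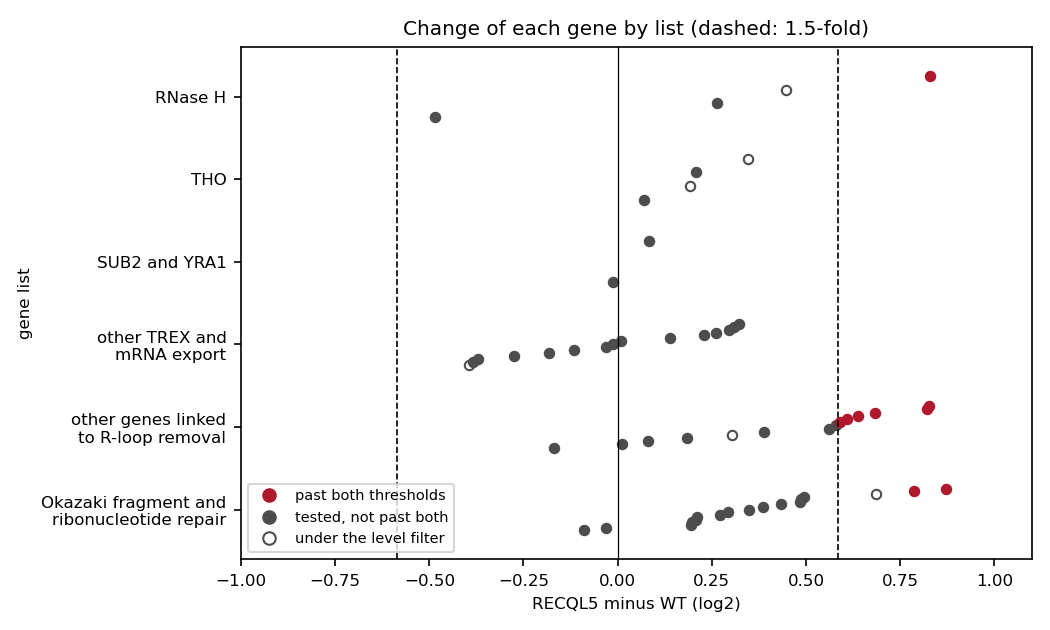
Change of each gene, RECQL5 minus WT in log2 units (x axis), for the RNase H, THO and TREX genes and the 3 partner lists (rows). Filled red points passed both thresholds, filled grey points were tested and did not, open points lay under the level filter, and dashed lines mark 1.5-fold. Rises past both thresholds are 1 in RNase H, 6 among other genes linked to R-loop removal and 2 among the repair partners.

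Measured by the root mean square difference over the 3 RECQL5-minus-WT values, the tested genes most like *RNH203* were *SEN1* (0.028), the ribosomal protein gene *RPL26A* (0.031) and *HSL7* (0.035), which encodes a methyltransferase of the morphogenesis checkpoint. *RPL26A* has a close paralog, so its reading is uncertain. The likeness rests on 3 arrays that share 1 WT array.

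The difference between 3' and 5' control probe sets of *ACT1*, the actin gene, was 0.78, 0.83 and 0.85 in RECQL5 and 0.77 in WT. For 6 further control genes that difference was shifted by -0.32 to 0.49 between the RECQL5 mean and WT. Only the lowest of these shifts was negative, and the shift of *ACT1*, 0.05, was the smallest in size. The part of these shifts in the results was not tested.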

How the data were processed

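Total RNA of 3 RECQL5 cultures and 1 WT culture was measured on 1 array each. The values are log2 levels that the authors made by RMA and deposited for every probe set of each array (background correction, quantile normalization, median polish). Versions of RMA and limma in the submitters' notes are not given in the sources used here. Group and replicate came from the sample titles. The source field of RECQL5 2 and 3 ends the construct's name in other digits, while title and strain name RECQL5. The study names another empty vector for some tet constructs.

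The table holds 10928 probe sets, 5498 of them paired with 1 *S. cerevisiae* gene through gene identifiers. Where a gene had several probe sets (47 genes, none of the 10), the one with the highest mean was used. Coding lengths and gene order came from the R64 gene table. The lengths are gene spans, so that of *YRA1* includes its intron. Coordinates are left out, since no genome build is named with the values.

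RECQL5 was compared with WT in limma 3.58.1 (R 4.3.3, lmFit and eBayes, two-sided, Benjamini-Hochberg), with 2 residual degrees of freedom that come from the RECQL5 arrays alone. The filter level of 600, the 1.5-fold change and the adjusted p of 0.1 follow the study's methods, which elsewhere name a stricter p. At these thresholds 396 genes rose and 322 fell here. The study reports far fewer altered genes in both directions, so its calls were not reproduced, and the reason was not tested. Coding length trends were fitted by lowess (span 0.3) per array. Values after ± are SE unless marked SD. The procedure was tested on simulated data in which every array had the spread seen among RECQL5 arrays. Those data held no offset of a single WT culture, so they cannot show how calls fare with one. The number of arrays limits the precision. The genes and lists were chosen with earlier results of these data known, so their counts are descriptions. Named genes are the 10 genes, up to 4 called genes per partner list with the largest change or the tested gene with the largest change where none was called, the 3 genes most like each called gene, some of the neighbours, and *ACT1*. The mating type marker lists had medians of 12.72 to 12.95 (a) and 6.26 to 6.84 (α) in RECQL5 and 12.70 and 7.54 in WT. *TEX1*, *DNA2* and the mating type genes were named after their values were seen.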

Additional observations from a re-analysis of the deposited data

How the results depend on the processing

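The rise of *RNH203* was called under all 12 alternatives (no level filter, the filter on every array, median centring, cyclic loess, a variance trend, averaged or unshared probe sets, a stricter p, coding length and each RECQL5 replicate left out), with changes of 0.78 to 0.87. Several of these alternatives could not alter the change itself. Each of the 10 genes has 1 unshared probe set, so averaging or dropping probe sets left its values as they were. The level filters, the variance trend and the stricter p act on the tests only. No other of the 10 genes was called under any alternative run for it. *RNH1* kept changes of -0.53 to -0.46. In the filter on every array *RNH202* was not tested. For *RNH201*, *HPR1* and *THP2* 8 alternatives without a level filter were added after seeing the data, with changes of 0.40 to 0.48, 0.07 to 0.20 and 0.29 to 0.39. *THO2* reversed to -0.12 and the count of other R-loop genes that rose moved to 3 after the coding length trend was subtracted, a step that by construction lowers the long genes here. *THO2* lay between 0.03 and 0.11 with a RECQL5 replicate left out. The counts of all genes that rose ran from 332 to 560 and of those that fell from 285 to 468. No paired analysis was possible because the groups share only replicate number 1. The WT array could not be left out.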

Other observations

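Genes next to the RNase H, THO and TREX genes on the chromosome varied in their changes. Of 20 neighbours 16 had a probe set and 12 were tested, of which 1 rose and 0 fell, where 9.59% of tested genes rose and 7.80% fell. The neighbour that rose was the ribosomal protein gene *RPS16B*, which converges on *SUB2* and read 13.85, 13.88 and 13.88 in RECQL5 and 13.14 in WT (0.73 ± 0.06, limma adjusted p = 0.00103), beside a change of 0.08 in *SUB2*. *RPS16B* has a close paralog, so its reading is uncertain.

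On the other side of *SUB2* stands *NDE2*, which encodes an external NADH dehydrogenase of mitochondria. It read 7.10, 6.88 and 7.09 in RECQL5 and 8.55 in WT, under the level filter, and in the fit with no filter it changed by -1.53 ± 0.11 (limma adjusted p = 0.0026). *SUB2* itself lay at most 0.12 above WT on any array.

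*RNA1*, the gene of the Ran GTPase activator of nuclear transport, converges on *RNH1* and read 11.85, 11.96 and 11.84 in RECQL5 and 11.30 in WT (0.58 ± 0.08, limma adjusted p = 0.0027, just under 1.5-fold), opposite in direction to *RNH1*. Downstream of *RNH203*, *ACS2*, an acetyl-CoA synthetase gene, differed by -0.06 ± 0.07 (limma adjusted p = 0.47). Downstream of *RNH201*, *LAT1*, a pyruvate dehydrogenase subunit gene, read 12.85, 12.77 and 12.82 in RECQL5 and 13.24 in WT (-0.43 ± 0.07, limma adjusted p = 0.0043, under 1.5-fold). The helicase gene *PIF1*, upstream of *MFT1*, read 9.75, 9.70 and 9.77 in RECQL5 and 9.35 in WT (0.39 ± 0.06, limma adjusted p = 0.0056, under 1.5-fold), also on the list of other R-loop genes. *RPS1B*, which converges on *MFT1*, changed by 0.56 ± 0.09 (limma adjusted p = 0.0050, under 1.5-fold). The neighbours shown are a selection, and the others are not named.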
